A study of Mus musculus with 13 samples.

Results

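The comparison described here set senescent wild-type (WT) mouse embryonic fibroblasts (MEFs) that had received the brown-alga polysaccharide Fucoidan-FV at 300 µg/mL against WT MEFs that were neither made senescent nor treated, and asked how far the treated senescent cells still lay from proliferating cells. Its members were all samples with these labels, 7 of the 13 libraries of the series, which come from 3 mice in each group. MEFs are primary fibroblasts grown from minced mouse embryos after most inner organs are removed, so a culture can hold a mixture of connective tissue cells. Control MEFs were WT and untreated. Senescent MEFs were WT cells exposed to etoposide at 2 µM for 24 h and then kept for 5 days in normal medium, and they were sequenced untreated or after Fucoidan-FV at 100 or 300 µg/mL, with RNA taken after 12 h of treatment. Mice 4, 5 and 6 gave 1 sample to every group, and control mouse 5 was sequenced in libraries 5(1) and 5(2), whose counts were summed. The control therefore differed from the 300 µg/mL group by etoposide and by Fucoidan-FV together, and the untreated senescent group is given beside it to show which differences were also there without Fucoidan-FV.

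Cellular senescence is a lasting exit from the cell cycle that follows DNA damage, such as the breaks that etoposide leaves by trapping topoisomerase II. The arrest is kept by p53 and its target p21 (Cdkn1a) and by p16 (Cdkn2a), which hold RB and its relatives in the form that represses cell cycle genes. Senescent cells (SnCs) also lose lamin B1, enlarge their lysosomes and secrete cytokines, growth factors and proteases known together as the senescence-associated secretory phenotype (SASP).

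Values are expected counts per gene estimated by RSEM, given below as CPM (counts scaled to a common library size) after TMM scaling. Fold changes and adjusted p-values come from 1 edgeR quasi-likelihood fit over the 4 groups with Benjamini-Hochberg adjustment over 15034 genes. A differentially expressed gene (DEG) is one whose adjusted p is below 0.05 and whose level differs more than 2-fold (log2 over 1 in either direction), and n = 3 mice per group throughout. Totals were 22782536 to 31278750 counts per library. Of 13 libraries, 4 had fewer genes with a count (14763 to 16444, against 17764 to 21021 in the others) and low values for genes whose exons lie in a single transcript. These were control mouse 6, library 5(1), untreated senescent mouse 5 and 300 µg/mL mouse 4. For 810 genes of that kind they lay 0.89 to 1.34 log2 units below the mean of all libraries, so such genes have a large spread in each group, and results are also given without these libraries. Because the samples are bulk RNA, fewer cells that express a gene and less RNA of it per cell cannot be told apart.

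The treated senescent cells lay far from the control. Of 15034 genes tested, 2704 were DEGs (18% of the genes), 1484 of them higher (9.87%) and 1220 lower (8.11%) in the 300 µg/mL group. In 2670 of these genes (98.7%) the 3 mice, compared with their own control, all differed in the direction of the fit. The DEGs were chosen from these same samples, so most of this agreement was fixed by that choice. More than 4-fold differences made up 1226 of the DEGs, 781 higher and 445 lower, and 754 differed more than 8-fold. Among those 754 were 95 genes without a control count and 13 without a count at 300 µg/mL, for which the fold is not defined. In the group where the gene was higher, the mean reached 1 CPM for 366 of the 506 genes over 8-fold higher and by 239 of the 248 over 8-fold lower. Without the 4 low libraries the DEGs numbered 2491.

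Untreated SnCs differed from the same control at 1266 genes (8.42% of the genes tested, 672 higher, or 4.47%, and 594 lower, or 3.95%), and 560 of these differed more than 4-fold. With only these groups fitted the number was 699, 249 of them higher. The median absolute log2 difference over all genes tested was 0.65 for 300 µg/mL against control, 0.48 for untreated SnCs against control and 0.38 for 300 µg/mL against untreated SnCs, while the median standard error was 0.38 in each of the 3 comparisons. The comparisons with control share their control samples, so they are not independent of each other. Tested directly, 300 µg/mL and untreated SnCs differed at 246 genes (1.64%), 113 higher (0.752%) and 133 lower (0.885%), a number that varied widely. It was 159, 120 and 46 without 300 µg/mL mouse 4, 5 or 6, 147 without untreated senescent mouse 6, 118 without the 4 low libraries and 101 with only these groups fitted. It was 605 with DESeq2 (54.4% higher) and 580 without a filter (56.6% higher), beside 45.9% higher among the 246.

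**Figure D1:**
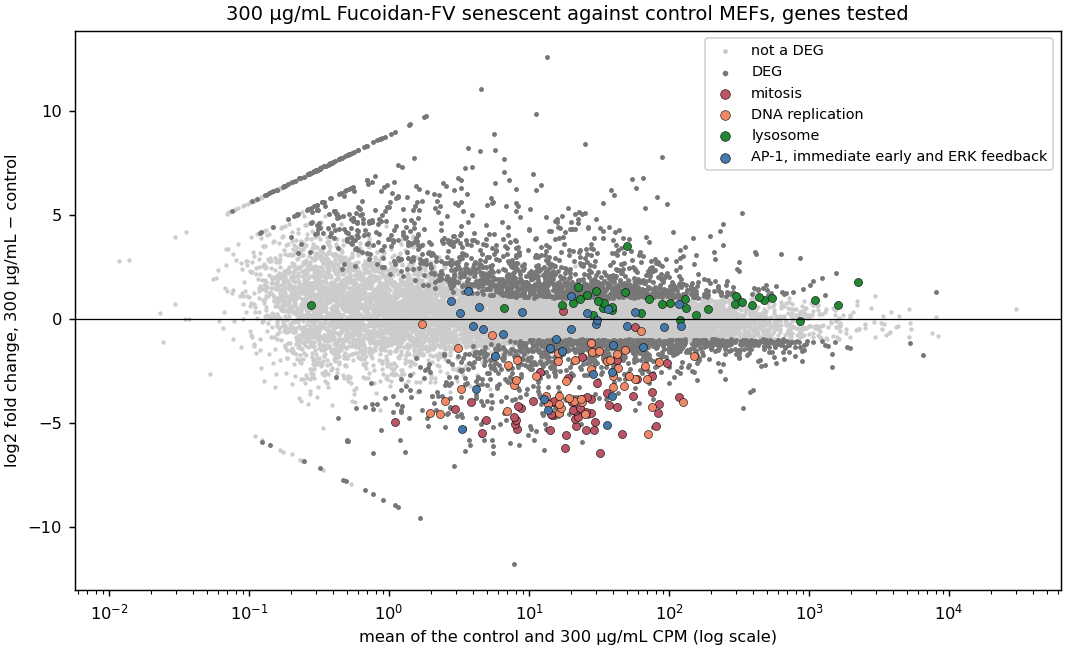
Log2 fold change of 300 µg/mL Fucoidan-FV senescent against control MEFs (y axis) by the mean CPM of both groups (x axis, log scale), 1 point per gene tested; dark grey points are DEGs and coloured points are members of 4 gene lists. Mitosis and DNA replication members lie at the lower edge, lysosome members lie mostly between 0 and 2, and the straight line of points at the upper left holds genes without a control count.

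The same order appeared between single libraries. Distance was taken as the root mean square (RMS) difference in log2 CPM over the genes tested. The 12 pairs of a control and a 300 µg/mL library lay 1.27 to 1.91 apart (median 1.71), the 12 pairs of a control and an untreated senescent library 1.12 to 1.75 (median 1.49), and the 9 pairs of an untreated and a 300 µg/mL senescent library 0.83 to 1.55 (median 1.22). Distances within a group were 0.75 to 1.51 in control (median 1.24, 5 pairs), 1.02 to 1.35 in untreated SnCs and 0.72 to 1.2 at 300 µg/mL. The 2 libraries of control mouse 5 were 1.3 apart. The lowest control to 300 µg/mL distance is thus below the highest within control, and the median between the senescent groups (1.22) is not above that within control (1.24). Pairs share libraries, so these distances are a description with no test. With the 11123 genes that had at least 10 counts in every sample, the median from control was 1.17 for 300 µg/mL and 1.02 for untreated SnCs.

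**Figure D2:**
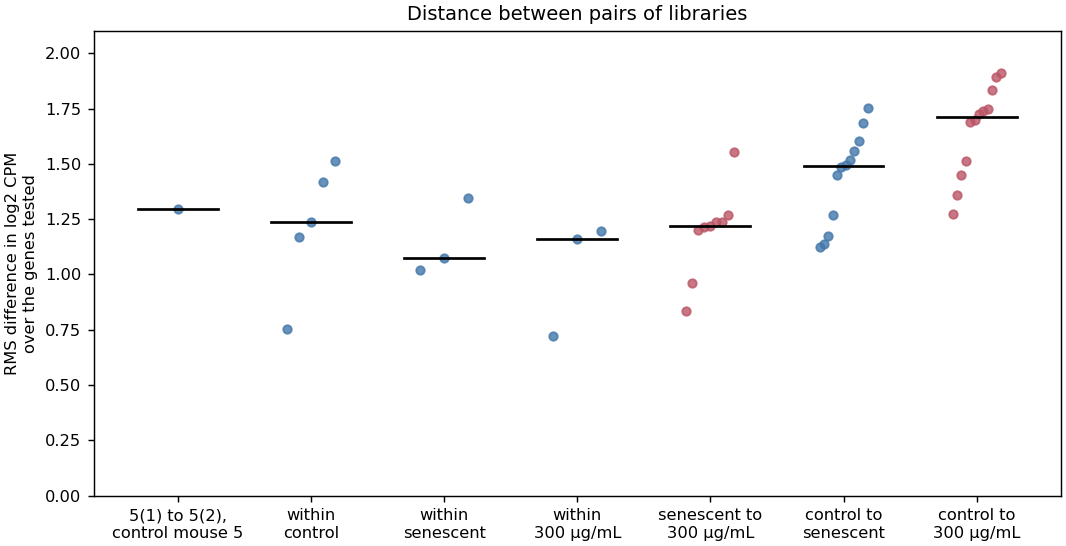
RMS difference in log2 CPM over the genes tested (y axis, from 0) for each pair of libraries, by kind of pair; lines are medians, and red marks pairs of the 300 µg/mL group with another group. Control to 300 µg/mL pairs have the highest median (1.71), and their range (1.27 to 1.91) overlaps that within control (0.75 to 1.51).

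The cell cycle genes were the farthest from control as a group. Of 55 mitosis genes tested, 53 were lower at 300 µg/mL, beside 8.11% of all genes. Their median log2 fold change was −4.31, beside 0.07 over all genes. The summed level of the list was 2874 to 3338 CPM in the control samples and 218 to 357 CPM at 300 µg/mL, so the groups did not overlap. In untreated SnCs 52 of the 55 were lower than in control (median −3.73), beside 3.95% of all genes, and the sum was 352 to 416 CPM. The 2 members that were not DEGs at 300 µg/mL were Fzr1, an activator of the anaphase-promoting complex, and Pttg1 (securin), with log2 fold changes of −0.41 (adjusted p = 0.21) and 0.38 (adjusted p = 0.47).

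Ube2c, the ubiquitin-conjugating enzyme of the anaphase-promoting complex, was the mitosis gene with the largest difference. It stood at 77.3, 70.9 and 41.3 CPM in control mice 4, 5 and 6 and at 0.078, 0.43 and 1.66 CPM at 300 µg/mL, 88.2-fold lower (log2 −6.46, SE 0.83, adjusted p = 0.000133 by edgeR). Untreated SnCs had 2.59, 2.37 and 7.24 CPM, and the difference between the senescent groups (log2 −2.51, SE 0.73) did not pass the test (adjusted p = 0.10). Top2a, which encodes the topoisomerase II isoform of dividing cells that etoposide traps, was at 131, 90.4 and 47.9 CPM in control and at 0.78, 1.60 and 3.36 CPM at 300 µg/mL, 47.0-fold lower (adjusted p = 6.29e-05). Mki67, the proliferation antigen Ki-67, was at 68.1, 40.2 and 17.2 CPM in control and at 0.43, 1.07 and 1.95 CPM at 300 µg/mL, 36.4-fold lower (adjusted p = 0.000211). Every treated sample was below every control sample for these genes. Of the bases of Ube2c, Top2a and Mki67 78%, 74% and 94% lie in 1 transcript. Each has its lowest control value in the low library of mouse 6 and its lowest 300 µg/mL value in that of mouse 4.

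Of the 55 mitosis genes 1 differed between the senescent groups (1.64% of all genes did), the spindle assembly factor Tpx2. It was at 223, 218 and 217 CPM in control, 27.0, 33.3 and 38.7 CPM in untreated SnCs and 16.9, 14.4 and 16.2 CPM at 300 µg/mL. The treated cells were lower than untreated SnCs by a log2 of −1.06 (SE 0.22, adjusted p = 0.028), so for Tpx2 the level at 300 µg/mL lay farther from control.

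Of 50 DNA replication genes, 46 were lower than in control (median log2 −2.93) against 40 in untreated SnCs (median −2.42). Of all genes 8.11% and 3.95% were lower in these comparisons. Mcm5, a subunit of the replicative helicase, was at 159, 132 and 122 CPM in control and at 2.25, 1.85 and 4.60 CPM at 300 µg/mL, 47.6-fold lower (log2 −5.57, SE 0.52, adjusted p = 1.58e-05), with 6.42, 7.46 and 12.1 CPM in untreated SnCs. Against untreated SnCs 2 of the 50 were lower at 300 µg/mL, beside 0.885% of all genes. These were Dbf4, the regulatory subunit of the CDC7 kinase, and Rpa1, the large subunit of the single-strand DNA binding complex. Their log2 differences were −1.27 and −1.07 (adjusted p = 0.031 and 0.010). Rpa1 stood at 235 ± 24.7 CPM in control, 141 ± 27.2 CPM in untreated SnCs and 67.5 ± 2.68 CPM at 300 µg/mL (mean ± SD).

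The promoters of the mitosis and the DNA replication gene with the largest difference are shown because such genes are read through known elements, the CHR and CCAAT boxes of mitotic genes and the E2F site of replication genes. Each sequence is the 250 bases before the start of the gene on its own strand, from RefSeq on build GRCm38.p6. Capitals mark an E2F core (TTCCCGC or TTGGCGC), a CHR (TTTGAA or TTCGAA) or CCAAT, on either strand; in these windows matches of different elements do not overlap, and in Ube2c neighbouring CCAAT matches overlap at 1 place.
Ube2c, chr2:164769679-164769928, plus strand: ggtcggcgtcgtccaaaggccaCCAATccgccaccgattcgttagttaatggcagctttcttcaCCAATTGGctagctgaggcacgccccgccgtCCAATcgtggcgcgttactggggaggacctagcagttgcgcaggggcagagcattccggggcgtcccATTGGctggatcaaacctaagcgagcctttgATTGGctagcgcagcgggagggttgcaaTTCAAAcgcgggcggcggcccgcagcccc
Mcm5, chr8:75109259-75109508, plus strand: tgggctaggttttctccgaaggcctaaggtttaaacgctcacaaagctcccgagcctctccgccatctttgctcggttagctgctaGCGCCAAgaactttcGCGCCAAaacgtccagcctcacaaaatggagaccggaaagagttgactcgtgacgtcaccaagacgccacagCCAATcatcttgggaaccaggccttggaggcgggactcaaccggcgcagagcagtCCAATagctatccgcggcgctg
A CHR was found in 16 of 45 mitosis promoters (35.6%), in 17.4% of 27025 promoters of all genes and in 12.2% of the promoters of genes tested. CCAAT was found in 33 of the 45 (73.3%), in 23 of 40 DNA replication promoters (57.5%), in 34.5% of all promoters and in 36.6% of the promoters of 10850 genes tested here. An E2F core was found in 10 of 40 DNA replication promoters (25.0%), in 5.7% of all promoters and in 10% of those of genes tested. These shares describe letters and carry no test.

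**Figure D3:**
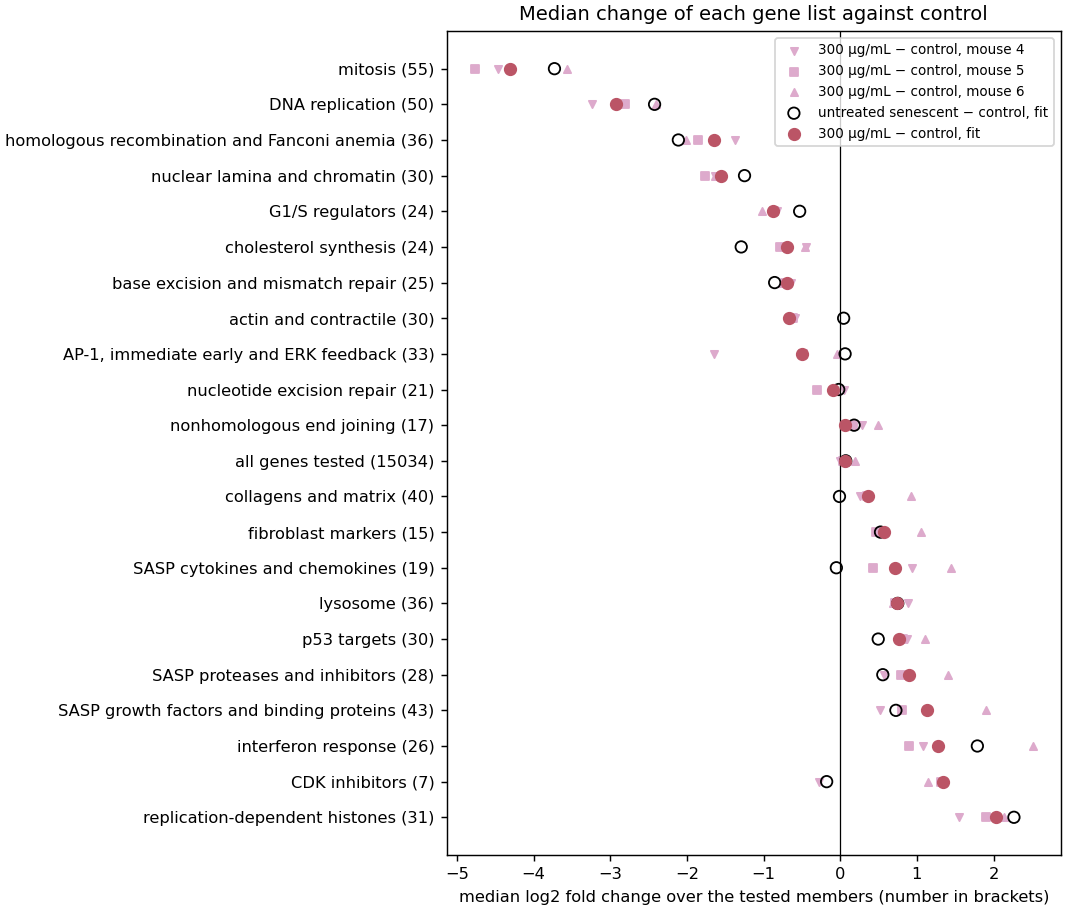
Median log2 fold change against control over the tested members of each gene list (x axis); filled circles are 300 µg/mL and open circles untreated senescent MEFs from the fit, and small symbols are each mouse's own 300 µg/mL to control difference. Mitosis (−4.31 and −3.73) and DNA replication (−2.93 and −2.42) lie farthest to the left, and AP-1 and actin lists lie below 0 at 300 µg/mL and near 0 in untreated senescent MEFs.

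The main CDK inhibitors of the arrest, p21 and p16, were above control in both senescent groups. Of 7 CDK inhibitor genes 3 were higher and 1 was lower at 300 µg/mL, beside 9.87% and 8.11% of all genes. Cdkn1a (chr17:29309936-29319701, GRCm39), which encodes the CDK inhibitor p21, was at 373, 504 and 527 CPM in control and at 1708, 1583 and 1688 CPM at 300 µg/mL, 3.55-fold higher (log2 1.83, SE 0.18, adjusted p = 2.45e-05). Untreated SnCs had 1569, 1866 and 1520 CPM, and the senescent groups differed by a log2 of 0.01 (SE 0.18, adjusted p = 0.99). Cdkn2a, the locus of p16 and p19ARF, was at 45.2 ± 8.41 CPM in control, 248 ± 89.3 CPM in untreated SnCs and 189 ± 12 CPM at 300 µg/mL, 4.19-fold higher than control (adjusted p = 8.14e-05). Both genes had treated samples that did not overlap control. Of the other CDK inhibitors, Cdkn1c (p57) was higher (38.6 ± 6.51 to 107 ± 16.1 CPM, log2 1.47, adjusted p = 0.000217) and Cdkn2c (p18) was lower (12.8 ± 2.71 to 2.13 ± 0.77 CPM, log2 −2.59, adjusted p = 0.0021). Of the 7, Cdkn1c alone differed between the senescent groups (1.64% of all genes did), by a log2 of 1.64 (SE 0.20, adjusted p = 0.0018). Of its bases 29% overlap an antisense gene.

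Of 30 p53 target genes, 11 were higher and 1 lower than in control at 300 µg/mL (median log2 0.77), beside 9.87% and 8.11% of all genes. In untreated SnCs 11 were higher (median 0.50), beside 4.47% of all genes. The death receptor gene Fas was at 4.59, 4.69 and 3.62 CPM in control and at 75.5, 71.5 and 86.3 CPM at 300 µg/mL, 18-fold higher (adjusted p = 7.57e-07), with 49.8 ± 5.97 CPM in untreated SnCs. Mdm2, which encodes the ubiquitin ligase of p53, was 2.44-fold higher (166 ± 56.3 to 406 ± 46.5 CPM, adjusted p = 0.0024). Perp, a p53 target of cell adhesion and death, rose from 0.075 ± 0.067 to 6.47 ± 4.32 CPM (log2 6.25, SE 0.93, adjusted p = 0.000377), with all its bases in 1 transcript. The 1 lower member was the stress kinase Plk3, at 41.6 ± 8.33 CPM in control, 28.6 ± 4.46 CPM in untreated SnCs and 12.9 ± 1.06 CPM at 300 µg/mL (log2 −1.69 against control, adjusted p = 0.000262, and −1.15 against untreated SnCs, adjusted p = 0.026).

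Of 24 G1/S regulators, 11 were lower and 2 higher than in control at 300 µg/mL, beside 8.11% and 9.87% of all genes. Ccna2 (cyclin A2) was at 110 ± 10.7 CPM in control and 5.14 ± 2.71 CPM at 300 µg/mL, and the repressor E2f7 was at 45.9 ± 8.97 and 1.39 ± 0.97 CPM, with log2 differences from untreated SnCs of −0.15 and −0.03 (adjusted p = 0.92 and 0.99). Myc, a growth-promoting transcription factor, was at 131 ± 30.7 CPM in control, 67.2 ± 9.41 CPM in untreated SnCs and 33.1 ± 4.26 CPM at 300 µg/mL, lower than untreated SnCs by a log2 of −1.02 (SE 0.20, adjusted p = 0.024). The higher members were Rb1 and Rbl2, which encode RB and p130. Rb1 was at 3.70 ± 1.83 CPM in control and 12.5 ± 5.88 CPM at 300 µg/mL (log2 1.75, adjusted p = 0.020), a call that was lost in 5 of 20 alternatives, and 83% of its bases lie in 1 transcript.

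DNA repair genes were counted by pathway, with no test between pathways. Of 36 genes of homologous recombination and the Fanconi anemia pathway, which repair breaks and crosslinks in replicating cells, 22 were lower (median log2 −1.64), beside 8.11% of all genes. That number was 14 without 300 µg/mL mouse 6. In untreated SnCs 18 were lower (median −2.11), beside 3.95% of all genes. Ube2t, the conjugating enzyme of the Fanconi pathway, had the largest difference of the list, from 7.42 ± 0.56 to 0.11 ± 0.098 CPM (log2 −6.09, SE 1.00, adjusted p = 0.000762), and 83% of its bases lie in 1 transcript.

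The 17 nonhomologous end joining genes had a median of 0.06, and 1 was called (5.9%, beside 18% of all genes). Paxx, a scaffold protein of the ligation step, was at 3.91 ± 1.04 CPM in control and 10 ± 3.03 CPM at 300 µg/mL (log2 1.35, SE 0.45, adjusted p = 0.044). It lost the call in 9 of 20 alternatives, and 35% of its bases overlap an antisense gene. Xrcc6, which encodes the end-binding protein Ku70, was at 48.0 ± 7.87 and 25.2 ± 5.22 CPM (log2 −0.93, adjusted p = 0.021, under the fold threshold). Of 21 nucleotide excision repair genes 3 were called (14.3%, beside 18% of all genes). Ercc5 (XPG endonuclease; 36.4 ± 6.61 to 104 ± 14.8 CPM, adjusted p = 0.000566) and Ddb2 (damage recognition; 0.96 ± 0.29 to 3.72 ± 0.71 CPM, adjusted p = 0.028) were higher. Ercc1, the partner of the XPF endonuclease, was lower (46.1 ± 12.3 to 22.3 ± 7.05 CPM, log2 −1.05, adjusted p = 0.024). Ddb2 lost its call in 6 and Ercc1 in 5 of 20 alternatives, and 46% of the Ddb2 bases overlap an antisense gene. Of 25 genes of base excision and mismatch repair 6 were lower and 1 higher, beside 8.11% and 9.87% of all genes. The called genes were led by the uracil glycosylase Ung (17.7 ± 1.94 to 1.68 ± 0.80 CPM, log2 −3.39, adjusted p = 0.000498) and the mismatch gene Mlh3 (21.0 ± 5.21 to 43.2 ± 0.71 CPM, log2 1.04, adjusted p = 0.026). Mlh3 lost its call in 6 of 20 alternatives, and the list had 4 DEGs without control mouse 4. Sirt6, a deacetylase that acts in repair, was at 12.2 ± 2.12 CPM in control and 10.3 ± 0.75 CPM at 300 µg/mL (log2 −0.25, SE 0.28, adjusted p = 0.56).

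Of 30 genes of the nuclear lamina and chromatin, 19 were lower (median log2 −1.55) and 17 were lower in untreated SnCs (median −1.25). Of all genes 8.11% and 3.95% were lower in these comparisons. Lmnb1 (lamin B1) was at 46.1, 28.3 and 13 CPM in control and at 1.2, 0.82 and 2.41 CPM at 300 µg/mL, 19.8-fold lower (adjusted p = 0.000119), with 1.81 ± 0.59 CPM in untreated SnCs. The maintenance methyltransferase gene Dnmt1 was at 248 ± 20.7 CPM in control, 36.5 ± 6.12 CPM in untreated SnCs and 42.6 ± 10.6 CPM at 300 µg/mL.

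The high mobility group genes Hmga1 and Hmga2, whose proteins bind AT-rich DNA and are abundant in embryonic and growing cells, departed from this pattern. Hmga1 (chromosome 17) was at 774, 714 and 441 CPM in control, at 288, 332 and 344 CPM in untreated SnCs and at 32.6, 35.9 and 30.7 CPM at 300 µg/mL. The 3 groups did not overlap. The treated cells were 19.4-fold below control (log2 −4.28, SE 0.24, adjusted p = 6.52e-07) and lower than untreated SnCs by a log2 of −3.28 (SE 0.23, adjusted p = 2.88e-05). Hmga2 was at 444 ± 101, 193 ± 25.5 and 58.6 ± 27.7 CPM in the same order, lower than untreated SnCs by a log2 of −1.72 (SE 0.30, adjusted p = 0.012).

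Of 67 replication-dependent histone genes 31 were tested, and 48 of the 67 were under 1 CPM in control and at 300 µg/mL. Members low in control could pass the count filter through the senescent groups alone, so their median is partly set by the filter. Over the 31 tested the median log2 fold change was 2.04, the highest of the lists. At 300 µg/mL 12 of the 31 were higher, beside 13 in untreated SnCs. Of all genes 9.87% and 4.47% were higher in these comparisons. The kit kept total RNA, so messages without a poly(A) tail could be counted. H2ac19 was at 11.3, 18.9 and 18.8 CPM in control and at 76.7, 67.5 and 77.5 CPM at 300 µg/mL (log2 2.17, SE 0.29, adjusted p = 0.000188). The summed list stood at 70.8 to 110 CPM in control, 264 to 536 CPM in untreated SnCs and 317 to 358 CPM at 300 µg/mL. Members are near-identical copies whose reads cannot be split with certainty, 27 of the 31 have over 80% of their bases in 1 transcript, and with at least 10 counts in every sample 6 were called.

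**Figure D4:**
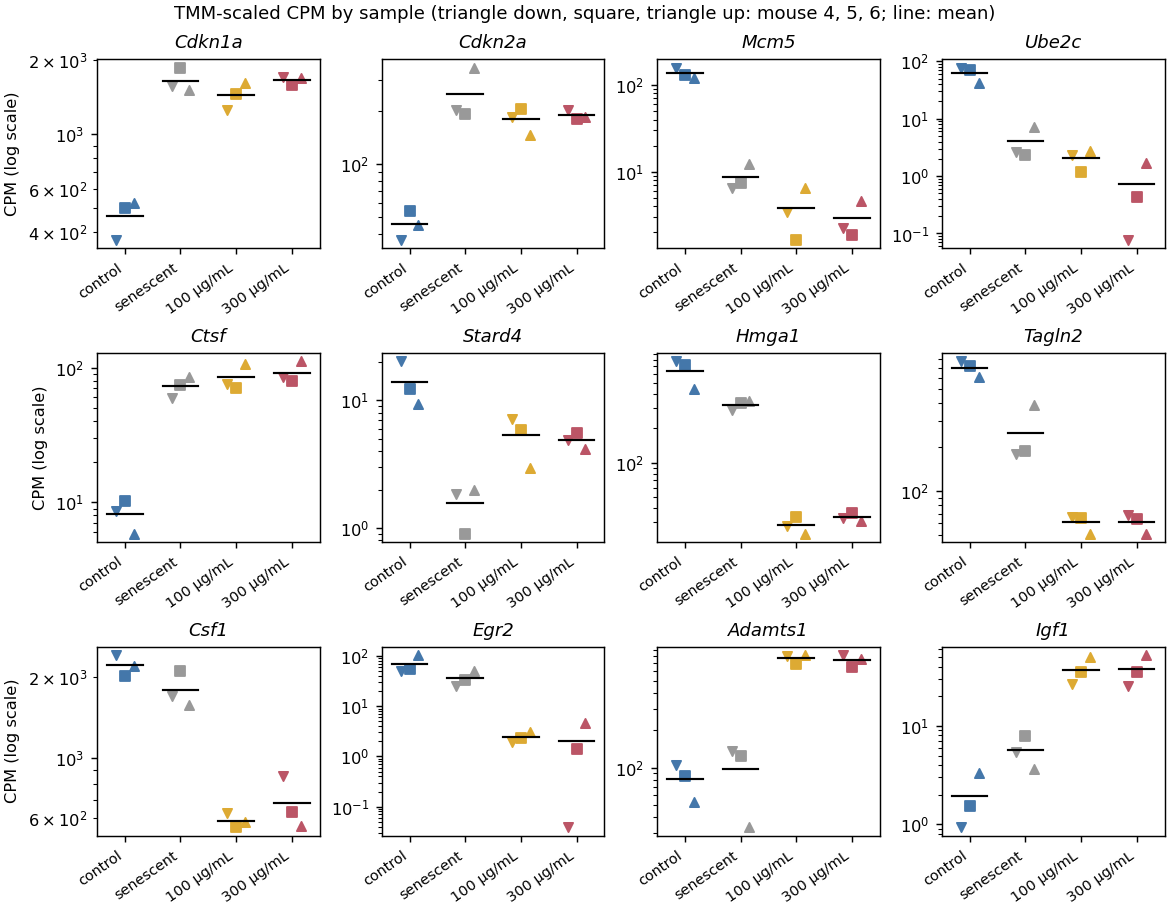
TMM-scaled CPM (y axes, log scale) of 12 genes in every sample of the 4 groups; triangles down, squares and triangles up are mice 4, 5 and 6, and lines are means. Cdkn1a and Ctsf are at a like level in the senescent groups, Stard4 at 300 µg/mL (4.15 to 5.55 CPM) lies between untreated senescent MEFs and control, and Hmga1, Csf1 and Egr2 at 300 µg/mL lie below both.

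The summed level of the lysosomal genes was above control in both senescent groups. At 300 µg/mL 7 of 36 were DEGs (19.4%, near the 18% of all genes), all higher (9.87% of all genes were), and 34 of 36 had a positive log2 fold change (median 0.74, beside 0.75 in untreated SnCs). The summed list was at 6213 to 7977 CPM in control, 12293 to 14886 CPM in untreated SnCs and 11755 to 13939 CPM at 300 µg/mL, with no overlap with control. Ctsd (cathepsin D) was at 817, 995 and 1242 CPM in control and at 3700, 2907 and 3763 CPM at 300 µg/mL, 3.40-fold higher (adjusted p = 0.000211). The protease gene Ctsf had the largest difference, from 8.63, 10.3 and 5.87 to 85.0, 79.6 and 111 CPM (11.1-fold, adjusted p = 6.27e-06). Glb1, which encodes the β-galactosidase whose activity is the usual stain for senescence, was at 68.6 ± 15.5 CPM in control and 111 ± 18.8 CPM at 300 µg/mL (log2 0.69, SE 0.21, adjusted p = 0.030, under the fold threshold). Between the senescent groups edgeR and DESeq2 called 0 of the 36, beside 246 and 605 of all 15034 genes. In edgeR 3 of the 36 had an unadjusted p under 0.05, beside 2297 of all genes. The number above control was 4 without control mouse 4, 11 without control mouse 6 and 19 by the adjusted p alone.

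Interferon response genes summed to 108 to 137 CPM in control and 224 to 292 CPM at 300 µg/mL, and 5 of 26 (19.2%) were higher than in control, beside 9.87% of all genes. In untreated SnCs 5 were higher, beside 4.47% of all genes. Stat2, a transcription factor of the interferon pathway, was at 11.3 ± 2.04 CPM in control and 33.2 ± 4.94 CPM at 300 µg/mL (log2 1.55, adjusted p = 0.0018). Ifi27 was at 25.2 ± 7.97 CPM in control, 96.0 ± 44.8 CPM in untreated SnCs and 58.1 ± 11.7 CPM at 300 µg/mL (adjusted p = 0.023 against control). The RNA sensor Rigi was at 23.5 ± 2.65 and 47.8 ± 8.19 CPM (adjusted p = 0.012), and Ifit3 and Trim30a reached means of 1.17 and 0.92 CPM at 300 µg/mL and less in control. Ifi27 and Rigi each lost the call in 4 of 20 alternatives, and the number of DEGs was 3 without control mouse 4 or 300 µg/mL mouse 6 and 8 without 300 µg/mL mouse 4.

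Cholesterol synthesis genes were nearer to control at 300 µg/mL than in untreated SnCs by their levels. At 300 µg/mL 4 of 24 were lower than in control, beside 8.11% of all genes (median log2 −0.70). In untreated SnCs 11 were lower, beside 3.95% of all genes (median −1.29). The summed list was at 2115 to 2303 CPM in control, 864 to 958 CPM in untreated SnCs and 1233 to 1455 CPM at 300 µg/mL, and the 3 groups did not overlap. Stard4, which carries sterols between membranes, was at 20.2, 12.4 and 9.4 CPM in control, 1.85, 0.91 and 1.97 CPM in untreated SnCs and 4.89, 5.55 and 4.15 CPM at 300 µg/mL. Its 3 groups did not overlap either. It was 2.88-fold below control (log2 −1.53, SE 0.44, adjusted p = 0.023), a call lost in 6 of 20 alternatives, and its log2 difference from untreated SnCs of 1.62 (SE 0.45) did not pass the test (adjusted p = 0.092). Srebf2, the transcription factor of the pathway, was at 261 CPM in control, 97 CPM in untreated SnCs and 151 CPM at 300 µg/mL on average (log2 −0.79 against control, adjusted p = 0.0021, under the fold threshold).

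Tested directly between the senescent groups, 24 of 24 cholesterol genes had a positive log2 fold change at 300 µg/mL (median 0.67, beside 0.00 over all genes). As DEGs edgeR called 0 of them and DESeq2 called 3, beside 246 and 605 of all 15034 genes. In edgeR 12 of the 24 had an unadjusted p under 0.05, beside 2297 of all genes. The difference from untreated SnCs is thus seen in the list's levels and not in calls of its single genes. The number below control was 2 without control mouse 4, without 300 µg/mL mouse 4 or without 300 µg/mL mouse 6, and 7 without the 4 low libraries.

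Some immediate early and ERK feedback genes were below control at 300 µg/mL. The 33 tested include the AP-1 subunits, the EGR factors and the phosphatases and other inhibitors that ERK signaling induces. Of these, 9 were lower than in control (beside 8.11% of all genes) and 10 had a positive log2 fold change (median −0.49). Against untreated SnCs 9 were lower (median −0.77), beside 0.885% of all genes. Between untreated SnCs and control edgeR and DESeq2 called 0 of the 33, beside 1266 and 1720 of all 15034 genes. In edgeR 3 of the 33 had an unadjusted p under 0.05, beside 3818 of all genes. Egr2 was at 49.6, 54.5 and 104 CPM in control, 25.1, 32.8 and 51.4 CPM in untreated SnCs and 0.039, 1.42 and 4.60 CPM at 300 µg/mL, 34.5-fold below control (log2 −5.11, SE 0.87, adjusted p = 0.000939) and lower than untreated SnCs by a log2 of −4.18 (adjusted p = 0.024). Every 300 µg/mL sample was below every control and untreated senescent sample, and mouse 4, the lowest, is a low library.

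Etv4, an ETS factor induced by growth factor signaling, was at 73.0, 75.2 and 68.9 CPM in control, 33.3, 38.8 and 43.4 CPM in untreated SnCs and 6.90, 4.77 and 4.89 CPM at 300 µg/mL, 13.1-fold below control (adjusted p = 7.61e-06). Dusp6, the ERK phosphatase of the cytoplasm, was at 67.5 ± 17.1, 60.3 ± 4.97 and 11.2 ± 1.29 CPM in the same order, 6.03-fold below control (adjusted p = 1.58e-05) and lower than untreated SnCs by a log2 of −2.43 (adjusted p = 0.000865). Dusp5, the nuclear ERK phosphatase, and the AP-1 subunit Fosl1 were 14.6-fold and 21.3-fold below control (adjusted p = 0.0010 and 0.000185). All bases of Dusp5 lie in 1 transcript, and 69% of those of Fosl1 overlap an antisense gene. Egr3 was at 6.29, 6.50 and 6.63 CPM in control and at 0, 0 and 0.50 CPM at 300 µg/mL (adjusted p = 0.0047). The members were not uniform, since Fos (log2 0.84, adjusted p = 0.51), Jun (−0.52, adjusted p = 0.63) and Fosl2 (0.68, adjusted p = 0.12) did not pass the test. The median of the list within each mouse was −1.64, −0.49 and −0.05 for mice 4, 5 and 6, lowest in the mouse with a low library.

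Actin and contractile genes showed the same order of groups. Of 30 tested, 7 were lower and 1 higher than in control (median log2 −0.66), beside 8.11% and 9.87% of all genes. A negative log2 fold change was seen in 25 of 30. Against untreated SnCs 7 were lower (median −0.64), beside 0.885% of all genes, while untreated SnCs had a median of 0.04 against control. The summed list was at 57619 to 63900 CPM in control, 50576 to 66240 CPM in untreated SnCs and 36577 to 42117 CPM at 300 µg/mL. The 300 µg/mL samples were thus below all control and untreated senescent samples. Tagln2 (transgelin 2, an actin-binding protein) was at 774, 724 and 603 CPM in control, 179, 187 and 386 CPM in untreated SnCs and 68.4, 64.5 and 51.1 CPM at 300 µg/mL, 11.4-fold below control (adjusted p = 8.3e-06) and lower than untreated SnCs by a log2 of −2.03 (adjusted p = 0.0038). Actb (β-actin) was at 7263 ± 422, 5196 ± 843 and 3177 ± 240 CPM, 2.29-fold below control (adjusted p = 0.00035), and its difference from untreated SnCs (log2 −0.71) had an adjusted p of 0.058. Myh11, the smooth muscle myosin heavy chain, was the higher member, at 93.0 ± 12.6 CPM in control, 251 ± 103 CPM in untreated SnCs and 330 ± 86.2 CPM at 300 µg/mL (adjusted p = 0.000484). The number lower than untreated SnCs was 2 without 300 µg/mL mouse 5 or mouse 6, without untreated senescent mouse 6 or without the 4 low libraries, and 3 without 300 µg/mL mouse 4 or untreated senescent mouse 5.

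Of 40 collagen and matrix genes, 13 were higher and 2 lower than in control at 300 µg/mL (9.87% and 8.11% of all genes were), and 2 were higher and 3 lower in untreated SnCs (4.47% and 3.95% of all genes were). Against untreated SnCs 6 were higher and 1 lower, beside 0.752% and 0.885% of all genes. Col3a1 (type III collagen) was at 431, 736 and 381 CPM in control, 861, 838 and 919 CPM in untreated SnCs and 1416, 1820 and 2651 CPM at 300 µg/mL, 3.80-fold above control (adjusted p = 0.000335) and above untreated SnCs by a log2 of 1.17 (adjusted p = 0.049). Eln (elastin) was at 41.4 ± 17.9, 52.6 ± 17.9 and 259 ± 138 CPM in the same order, 6.26-fold above control (adjusted p = 0.0012). Dcn (decorin, a small proteoglycan that binds collagen) was at 1.57, 0.73 and 0.89 CPM in control, 13.1, 22.9 and 12.7 CPM in untreated SnCs and 53.8, 40.3 and 133 CPM at 300 µg/mL, 72.3-fold above control (adjusted p = 7.53e-05), and its log2 difference from untreated SnCs of 2.22 had an adjusted p of 0.082. Col15a1, a collagen of basement membranes, was lower, at 21.2 ± 7.79, 24.5 ± 6.58 and 3.55 ± 1.24 CPM (log2 −2.58 against control, adjusted p = 0.000457, and −2.79 against untreated SnCs, adjusted p = 0.0046). The fibrillin gene Fbn2, above untreated SnCs by a log2 of 2.69 (adjusted p = 0.015), was 3.20-fold above control (adjusted p = 0.019) and lost that call in 3 of 20 alternatives.

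SASP genes lay on both sides of control. Of 30 cytokine and chemokine genes 15 were under 1 CPM in both groups, and 19 were tested, of which 3 were higher and 2 lower. These calls were 26.3% of the genes tested in the list, beside 18% of all genes (9.87% higher and 8.11% lower). Csf1 (chromosome 3), the growth factor of macrophages, was the most abundant in control. It was at 2415, 2024 and 2193 CPM in control, 1696, 2103 and 1577 CPM in untreated SnCs and 857, 628 and 557 CPM at 300 µg/mL, 3.25-fold below control (log2 −1.70, SE 0.20, adjusted p = 6.27e-05) and lower than untreated SnCs by a log2 of −1.40 (adjusted p = 0.0042). Il11 was at 7.76 ± 2.00 and 1.87 ± 1.56 CPM (adjusted p = 0.046) and lost the call in 10 of 19 alternatives. The chemokine Cxcl12 was at 237, 304 and 335 CPM in control and at 765, 491 and 1336 CPM at 300 µg/mL (log2 1.57, adjusted p = 0.022), and lost the call without control mouse 4, without 300 µg/mL mouse 6 (adjusted p up to 0.12 over its alternatives) or without the 4 low libraries. Il33, an alarmin, was at 0.17, 0.020 and 0 CPM in control and at 3.84, 1.35 and 9.91 CPM at 300 µg/mL (log2 6.36, SE 1.65, adjusted p = 0.013), and lost the call in 2 of 19 alternatives. Cxcl15 had no control count and 45 counts at 300 µg/mL, at least 18.4-fold higher against a floor of 3 counts over the control group. Il6 was at 0.43, 2.1 and 4.61 CPM in control and at 3.37, 1.74 and 4.73 CPM at 300 µg/mL, groups that overlapped (log2 0.47, SE 0.75, adjusted p = 0.70). The number of DEGs in this list was 3 without control mouse 5 or 300 µg/mL mouse 6.

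Of 43 SASP growth factors and binding proteins 16 were higher and 3 lower than in control, beside 9.87% and 8.11% of all genes. In untreated SnCs 9 were higher, beside 4.47% of all genes. Those lower at 300 µg/mL included Hbegf, a ligand of the EGF receptor, and Pgf (placental growth factor). Hbegf was at 114, 99.1 and 104 CPM in control, 91.9, 63.1 and 111 CPM in untreated SnCs and 17.1, 27.6 and 12.7 CPM at 300 µg/mL, 5.52-fold below control (adjusted p = 0.0014), with 87% of its bases in 1 transcript. Pgf was at 21.2 ± 6.33 CPM in control and 7.26 ± 1.74 CPM at 300 µg/mL (adjusted p = 0.0045), and both genes were lower than in untreated SnCs (log2 −2.21 and −2.06, adjusted p = 0.024 and 0.0099).

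The higher growth factors included genes with little RNA in control. Bmp4, a bone morphogenetic protein, was at 2.00, 2.20 and 0 CPM in control, 26.5, 24.7 and 29.1 CPM in untreated SnCs and 104, 66.9 and 174 CPM at 300 µg/mL, 78.5-fold above control (adjusted p = 0.000141), and 31% of its bases overlap an antisense gene. Igf1 (insulin-like growth factor 1) was at 0.94, 1.55 and 3.29 CPM in control, 5.43, 7.80 and 3.67 CPM in untreated SnCs and 25.5, 34.9 and 52.2 CPM at 300 µg/mL, 19.6-fold above control (adjusted p = 6.31e-05) and above untreated SnCs by a log2 of 2.74 (adjusted p = 0.010). The angiopoietin gene Angpt1 was at 0.49 ± 0.31, 4.11 ± 2.56 and 19.7 ± 6.96 CPM in the same order, 38.6-fold above control (adjusted p = 5.34e-05). Igfbp3, a binding protein of insulin-like growth factors, was at 1.44 ± 0.42, 20.2 ± 1.62 and 48.7 ± 21.3 CPM, 33.7-fold above control (adjusted p = 7.79e-06). Sema3f, a guidance factor of the semaphorin family, was at 28.5 ± 4.94, 27.6 ± 9.61 and 86.0 ± 17.7 CPM, above control and above untreated SnCs (adjusted p = 0.00094 and 0.010). Igfbp2, another such binding protein, was at 82.9 ± 32.1, 589 ± 309 and 544 ± 175 CPM, and the senescent groups differed by a log2 of −0.12 (SE 0.38, adjusted p = 0.93).

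Of 28 proteases and inhibitors of the SASP 9 were higher and 5 lower than in control, beside 9.87% and 8.11% of all genes. The lower ones included Plaur (the urokinase receptor) and Serpinb2 (PAI-2) of the plasminogen activator system, Timp1, an inhibitor of metalloproteinases, and Mmp9. Plaur was at 255 ± 22.3 CPM in control, 145 ± 7.58 CPM in untreated SnCs and 43.4 ± 7.35 CPM at 300 µg/mL, 5.88-fold below control (adjusted p = 5.86e-06). Timp1 was at 1057, 959 and 1115 CPM, 1140, 1179 and 2479 CPM, and 325, 244 and 242 CPM in the same groups, 3.86-fold below control (adjusted p = 0.000271). Serpinb2 was 20-fold below control (10.2 ± 3.58 to 0.51 ± 0.17 CPM, adjusted p = 3.64e-05), and Mmp9 29.3-fold (13.2 ± 11.9 to 0.45 ± 0.29 CPM, adjusted p = 0.0011).

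On the other side of control, Serpine2, an inhibitor of serine proteases, was at 41.5 ± 7.88 CPM in control, 310 ± 40.9 CPM in untreated SnCs and 376 ± 24.8 CPM at 300 µg/mL (9.06-fold, adjusted p = 1.1e-06), and the senescent groups differed by a log2 of 0.28 (adjusted p = 0.54). Further members above control were Adamts1, a protease of proteoglycans, at 106, 85.1 and 52.6 CPM in control, 135, 125 and 33.1 CPM in untreated SnCs and 809, 654 and 750 CPM at 300 µg/mL (9.07-fold, adjusted p = 0.000183), and the collagenase gene Mmp13, at 0.11 ± 0.088 and 7.09 ± 6.35 CPM (adjusted p = 0.000241, all bases in 1 transcript). Both were above untreated SnCs (log2 2.91 and 3.28, adjusted p = 0.0050 and 0.030). Timp3, another metalloproteinase inhibitor, lay nearer to control at 300 µg/mL than in untreated SnCs. It was at 404, 319 and 315 CPM in control, 1453, 1036 and 927 CPM in untreated SnCs and 464, 511 and 469 CPM at 300 µg/mL, above control by a log2 of 0.48 (SE 0.19, adjusted p = 0.093) and below untreated SnCs by −1.24 (SE 0.20, adjusted p = 0.0087).

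Over all genes, those farthest below control with at least 5 CPM in the higher group included Pif1, a DNA helicase, at 16.4, 15 and 15.6 CPM in control and without a count at 300 µg/mL, at least 403-fold lower against the floor of 3 counts over the group. The others were the cell cycle genes Ube2c, Dscc1, Pbk, Sapcd2 and Shcbp1. Shcbp1 was at 25.2 ± 7.42 and 0.32 ± 0.37 CPM (adjusted p = 0.000115) and Pbk at 10.9 ± 5.38 and 0.12 ± 0.15 CPM (adjusted p = 0.000747). Dscc1, a subunit of a clamp loader that joins sister chromatids, had 511 counts in control and 3 at 300 µg/mL, a ratio of 139 (95% exact interval 47.2 to 675, counting error only).

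The genes farthest above control were Elobl, Snhg11, Scn3b, Or51e2, Serpinb1a and Ednrb. Scn3b, a sodium channel subunit induced by p53, was at 26.4, 22.7 and 18 CPM at 300 µg/mL and 9.24, 10.1 and 2.11 CPM in untreated SnCs, with 1753 counts against 2 in control (ratio 1076, 95% interval 297 to 8890). Ednrb, an endothelin receptor, had 573 counts against 2 in control (ratio 352, 96.9 to 2910). It was at 10.2, 5.90 and 5.97 CPM at 300 µg/mL, above untreated SnCs (0.23 ± 0.093 CPM) by a log2 of 4.97 (SE 0.57, adjusted p = 0.0011). The odorant receptor gene Or51e2 had 896 counts against 2 (ratio 550, 152 to 4547). Elobl and the noncoding Snhg11 had no control count and were at least 830-fold and 289-fold higher. Serpinb1a, an inhibitor of neutrophil proteases, was at 0.12 ± 0.12 and 50 ± 44.7 CPM (log2 8.39, adjusted p = 8.17e-05).

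Fibroblast markers differed widely in level. Col1a2 was at 3432, 4440 and 3409 CPM in control and 2577, 3204 and 3572 CPM at 300 µg/mL, and Vim (vimentin) at 5590 ± 167 and 4869 ± 936 CPM, and neither was called (adjusted p = 0.31 and 0.49). Of 15 fibroblast markers 5 were higher and 1 lower, beside 9.87% and 8.11% of all genes. The higher ones included Pdgfrb, Fap, Col3a1 and Dcn, the last with the largest difference (1.06 ± 0.45 to 75.7 ± 50 CPM). The lower one was the transcription factor gene Twist2 (23.5 ± 6.57 to 9.72 ± 2.92 CPM, adjusted p = 0.021, lost in 3 of 20 alternatives).

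Markers of macrophages and endothelium were low, while those of epithelial, neural and muscle cells were not all low. The sum of 15 macrophage markers was 3.57 to 5.77 CPM in control and 5.39 to 14.3 CPM at 300 µg/mL, with 12 of the 15 under 1 CPM in both groups. Of 10 macrophage markers tested 2 were higher, beside 9.87% of all genes. Lyz2 was higher (0.40 ± 0.27 to 3.66 ± 2.58 CPM, adjusted p = 0.024), as was Tyrobp, with 51 counts against 1 (ratio 62.6, 10.7 to 2520). These calls were lost in 6 and 9 of 18 alternatives. The sum of 10 endothelial markers was 4.65 to 10.2 CPM in control and 17.6 to 19.3 CPM at 300 µg/mL. Of 8 tested 2 were higher, beside 9.87% of all genes. The ETS factor gene Erg was at 0, 0.098 and 0 CPM in control and at 6.71, 6.83 and 9.87 CPM at 300 µg/mL (adjusted p = 0.000627), and Tek, the angiopoietin receptor, at 0.36 ± 0.44 and 4.92 ± 1.11 CPM (adjusted p = 0.0089), while the defining genes Pecam1 and Cdh5 stayed at 1.03 CPM or less in every sample of both groups. The sum of 10 epithelial markers was 15.9 to 33.3 CPM in control and 1.86 to 3.17 CPM at 300 µg/mL, with 9 of the 10 under 1 CPM in both groups. Of 2 epithelial markers tested 1 was lower, beside 8.11% of all genes. This was Krt19 (25.4 ± 8.60 to 1.62 ± 0.27 CPM, adjusted p = 6.68e-05), and Krt14 had no count in either group. The neural list summed to 586 to 1099 CPM in control and 221 to 251 CPM at 300 µg/mL, most of it from Nes (nestin), which was lower (749 ± 279 to 154 ± 11.4 CPM, adjusted p = 6.1e-05) and below untreated SnCs by a log2 of −2.42 (adjusted p = 0.000952). The microtubule gene Map2 was higher (2.65 ± 0.71 to 21.8 ± 2.24 CPM, adjusted p = 0.0012), and Dcx had no count in control and 51 at 300 µg/mL. In all, 2 of 7 neural markers tested were higher and 1 was lower, beside 9.87% and 8.11% of all genes. The skeletal muscle list summed to 104 to 197 CPM in control and 68.7 to 121 CPM at 300 µg/mL. Of 5 members tested 1 was lower, beside 8.11% of all genes. This was Acta1 (104 ± 20.3 to 30.5 ± 12.4 CPM, adjusted p = 0.0082), and Myf5 had no count in any library. The part of such cells in the results above was not tested.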

How the data were processed

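RNA of WT MEFs was sequenced in 4 groups of 3 mice (13 libraries). The authors aligned reads to GRCm39 with STAR 2.7.11b and estimated counts with RSEM 1.3.1, per the labels and the paper's methods. The expected counts they deposited are not normalized. The TPM values they deposited beside them are scaled by RSEM for length and library, and were not used for tests, nor was a joint table of counts. Of 57010 genes listed, 56310 matched the GENCODE annotation. The kit was stranded, and how strand was set for counting is not given in the sources used here.

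Expected counts were rounded, libraries 5(1) and 5(2) summed, and genes kept by filterByExpr (minimum count 10, minimum total 15). edgeR 4.0.16 in R 4.3.3 fitted 1 quasi-likelihood model over the 4 groups with TMM factors (0.896 to 1.16 times). An SE is the log2 fold change divided by the root of F. With 3 mice against 3 a permutation test of 1 gene could not reach 0.05, so all p-values come from the model. Totals of 22782536 to 31278750 counts set the precision, and floors of 3 counts and intervals cover counting error alone. Counts were simulated for this comparison with 200 changed genes (14416 genes in that step). Of these, 10 of 67 changed 2-fold, 40 of 67 changed 4-fold and 49 of 66 changed 8-fold were called, with 4 others. A 2-fold change lies at the fold threshold itself, so its rate is partly set by that threshold. The 200 changed genes are fewer than the 2704 DEGs of the data, which makes the adjustment of p stricter in the simulation.

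The gene lists were written from general knowledge, and the members and lists were chosen with earlier results of these data known. Named were fixed genes of senescence, the DEGs with the largest rise and fall in each list and over all genes (mean of 5 CPM or more where higher, same direction in 3 of 3 mice), the list members that differed most from untreated SnCs, and all DEGs of lists with 5 or fewer; other list members are examples chosen after their values were seen. Some genes that the rule names are not reported here. The labels number the same mice in every group, so these numbers pair the samples, although same-numbered control and 300 µg/mL samples deviated from their group means with correlations of −0.195, 0.206 and −0.120. The fit without the mouse was the main one.

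Alternatives were DESeq2 1.42.0, RLE factors, other filters, a fit of only the groups compared, other uses of libraries 5(1) and 5(2), mouse number as a block, leaving out 1 mouse at a time, and the adjusted p alone. Added after seeing the data were offsets for the share of bases in 1 transcript, with and without the block, only genes with at most 50% of such bases, and leaving out the 4 low libraries.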

Additional observations from a re-analysis of the deposited data

How the results depend on the processing

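The DEGs between 300 µg/mL and control numbered 2112 to 3201 over most alternatives, 2182 to 2656 with each mouse left out, 3675 by the adjusted p alone and 1709 with only the 7580 genes that have at most 50% of their bases in 1 transcript, which are fewer genes by construction. With the mouse as a replicate block they were 2546, and of the list counts the block moved that of nonhomologous end joining (0) by over 1.5 times. Untreated SnCs against control gave 699 DEGs when only the 2 groups were fitted (35.6% higher, beside 53.1%). The DEGs between 300 µg/mL and untreated SnCs were the least stable, with 605 by DESeq2, 580 without a filter (56.6% higher, beside 45.9%), 101 when only the 2 groups were fitted, 396 with offsets for bases in 1 transcript, 118 without the 4 low libraries and 46 to 220 with each mouse left out. The median distance from control was 1.171 with at least 10 counts in every sample.

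Of the gene lists (DEGs against control), DESeq2 gave 5 for nucleotide excision repair and 11 for interferon response. Without a filter there were 9 SASP cytokines and 14 AP-1 genes. At least 10 counts in every sample, which removes genes at low levels by construction, left 35 mitosis genes, 2 SASP cytokines and 6 histones, and genes with 2 or more transcripts left 4 histones. With only the 2 groups fitted there were 3 SASP cytokines and 3 interferon genes. Library 5(1) alone gave 0 for end joining, 11 for lysosome and 9 for interferon. Offsets gave 8 for interferon and 0 for end joining (also with the replicate block), and leaving out the 4 low libraries gave 0 for end joining and 7 for cholesterol. By the adjusted p alone there were 2 end joining, 5 nucleotide excision, 15 actin, 19 lysosome and 8 cholesterol genes. Calls over all genes also moved with the setting. DESeq2 called 3201 of 15034 genes, and a fit without a filter 3057 of 27238. With at least 10 counts in every sample the calls were 2112 of 11240, and with 2 or more transcripts 2630 of 12967. The 2 groups alone gave 2401 of 13718 and library 5(1) alone 2808 of 15030. Offsets gave 3024 and the adjusted p alone 3675 of 15034, and leaving out the 4 low libraries 2491 of 15352. The cause of the shifts in the list counts was not tested otherwise.

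With each mouse left out in turn, the lists whose count moved by over 1.5 times ranged over 3 to 6 DEGs for SASP cytokines, 4 to 8 for base excision and mismatch repair, 2 to 4 for cholesterol, 14 to 21 for homologous recombination, 3 to 8 for interferon, 4 to 11 for lysosome, 0 to 1 for end joining and 1 to 4 for nucleotide excision repair. Il6, which did not pass the test, ranged over log2 −0.002227 to 1.395. Simulated 4-fold changes were called for 40 of 67 genes, so a gene that missed the threshold is not shown to be equal between groups. The rate for 2-fold changes, 10 of 67, is partly set by the fold threshold, which lies at 2-fold itself.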
